A study of Mus musculus with 16 samples.

Results

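AMPA-type glutamate receptors and the auxiliary subunits that travel with them were described in prelimbic cortex (PL) neurons sorted by their projection target. The 9 genes were taken by symbol from a list, chosen with earlier results of these data known. They are the pore-forming subunits Gria1, Gria2, Gria3 and Gria4, the transmembrane AMPA receptor regulatory proteins (TARPs) Cacng2, Cacng3 and Cacng8, and the cornichons Cnih2 and Cnih3. All 9 were found among the 39017 gene rows of each table, and all 9 had an adjusted p in each of the 3 projections.

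All mice were of the inbred strain C57BL/6J. AAV-IV-GFPL10, an adeno-associated virus that tags ribosomes with green fluorescent protein, was placed in the PL of every animal. CAV-Cre, a canine adenovirus that is carried back along axons and delivers Cre recombinase, was placed in the nucleus accumbens (PL-NAc), the basolateral amygdala (PL-BLA) or the ventral tegmental area (PL-VTA). RNA on tagged polysomes, captured with anti-GFP magnetic beads, formed the immunoprecipitate (IP), and RNA of the PL before capture formed the Input. There were 3 IP and 3 Input libraries for PL-NAc, 3 and 3 for PL-BLA, and 2 and 2 for PL-VTA, 16 in all. The sources used here give no age, no sex, no promoter for the tagging virus and no number of animals behind a library. The p-values therefore reflect variation among these libraries alone, part or all of which may be technical. Tagging needs both viruses in 1 cell, and the IP is an enrichment over the Input, not a pure cell population.

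AMPA receptors are tetramers of GluA1 to GluA4, the products of the Gria genes, and carry most of the fast excitatory current at synapses of cortical neurons. GluA2 sets the ion selectivity of the receptor: RNA editing changes a glutamine codon in the pore loop of its transcript to one read as arginine, and receptors that hold edited GluA2 pass little calcium. TARPs and cornichons bind the receptor in the membrane, help to bring it to the surface and slow its closing, and TARPs also tie it to the scaffold of the synapse.

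The edited codon of Gria2 lies in the stretch of the pore loop shown here, given for all 4 subunits. The change that matters for calcium is made in the RNA and is not seen in these sequences. Each line gives the genome-encoded sequence of 83 bases within 1 exon, 5′ to 3′ on the coding strand, with the glutamine codon of the edited position in capitals. Coordinates and sequences are from GENCODE M21 on GRCm38.
Gria1 (exon 11 of 16, plus strand, chr11:57243037-57243119): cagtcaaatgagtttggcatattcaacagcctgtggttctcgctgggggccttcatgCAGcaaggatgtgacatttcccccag
Gria2 (exon 11 of 16, minus strand, chr3:80706888-80706970): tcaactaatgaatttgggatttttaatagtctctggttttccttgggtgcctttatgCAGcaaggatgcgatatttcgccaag
Gria3 (exon 11 of 16, plus strand, chrX:41610208-41610290): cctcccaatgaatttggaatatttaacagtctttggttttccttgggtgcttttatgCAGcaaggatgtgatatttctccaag
Gria4 (exon 12 of 17, minus strand, chr9:4464114-4464196): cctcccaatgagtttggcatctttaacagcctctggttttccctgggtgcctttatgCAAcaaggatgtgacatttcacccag
All 4 genes encode glutamine at this position, with CAG in Gria1, Gria2 and Gria3 and CAA in Gria4. Against the Gria2 stretch, Gria1 differed at 21 of the 83 bases, Gria4 at 15 and Gria3 at 11. The tables count reads per gene, so edited and unedited Gria2 transcripts are summed in all values below. The transcripts of the 4 Gria genes shared at most 38 stretches of 31 identical bases between any pair, while each of the 9 genes held at least 1369 such stretches.

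The values are those of the authors' deposited tables, which give for each gene the mean normalized read count over all libraries of a projection, the log2 fold change with a standard error, and no value per library. The fold change was read as IP over Input, because all 9 mitochondrially encoded genes at a mean of 50 or more were negative in each table, as were 22, 21 and 22 of 22 glial markers in PL-NAc, PL-BLA and PL-VTA. A gene is called higher or lower here where the adjusted p was under 0.05. Standard errors were wider in PL-VTA, with a median of 0.22 over genes at a mean of 50 or more, than in PL-NAc (0.12) and PL-BLA (0.13), and a change had to be larger there to be called. The deposited fold changes may have been shrunken toward zero by the authors: no standard error exceeded 0.438 in PL-NAc, 0.419 in PL-BLA or 0.451 in PL-VTA, even for genes with few reads. Fold changes of genes with low counts may then be understated. The zero of each fold change is set by the authors' scaling. Excitatory neuron markers had a median of 0.59 for PL-NAc, 0.55 for PL-BLA and 0.06 for PL-VTA, called the excitatory median below. Taking that median as zero lowers every PL-NAc and PL-BLA value by more than it lowers a PL-VTA value. The markers behind it were themselves uneven. Of 10, 8 were higher and 1 lower in PL-NAc, 8 higher and none lower in PL-BLA, and 2 higher and 2 lower in PL-VTA. Which zero is the better one was not tested. Inhibitory neuron markers were lower for 11 of 12, 12 of 12 and 10 of 12 genes in the 3 IPs, with medians of -1.73, -1.67 and -1.70. In bulk RNA of this kind, fewer cells of a type and less RNA per cell cannot be told apart.

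Of the 9 genes, 4 were higher in the IP of PL-NAc and none was lower. In PL-BLA 3 were higher and 1 was lower, and in PL-VTA 2 were higher and 2 lower. Among all genes tested, 21.4% were higher and 21.7% lower (43.1% either way) in PL-NAc, 20.8% and 20.2% (41.0%) in PL-BLA, and 11.0% and 10.5% (21.5%) in PL-VTA. The median log2 fold change of the 9 genes was -0.02 for PL-NAc, -0.01 for PL-BLA and 0.25 for PL-VTA, against -0.03, -0.02 and 0.02 over all genes tested. In PL-NAc and PL-BLA the share of the 9 genes called either way was thus near that of all genes. With the authors' zero the set did not move as a block. By gene, on that zero, Gria2 was higher in all 3 IPs, Cnih2, Cnih3 and Cacng3 in 2 each, and Cacng2 was lower in 2. Taking the excitatory median as zero gave 1 higher and 7 lower for PL-NAc, 1 and 6 for PL-BLA, and 2 and 2 for PL-VTA. Cnih3 was the 1 gene of the 9 higher in PL-NAc and PL-BLA on that zero. Of the 17998 genes tested in PL-NAc, 473 were then higher and 11858 lower. The counts were 492 and 11058 of 17668 in PL-BLA, and 1333 and 1805 of 15440 in PL-VTA.

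**Figure D1:**
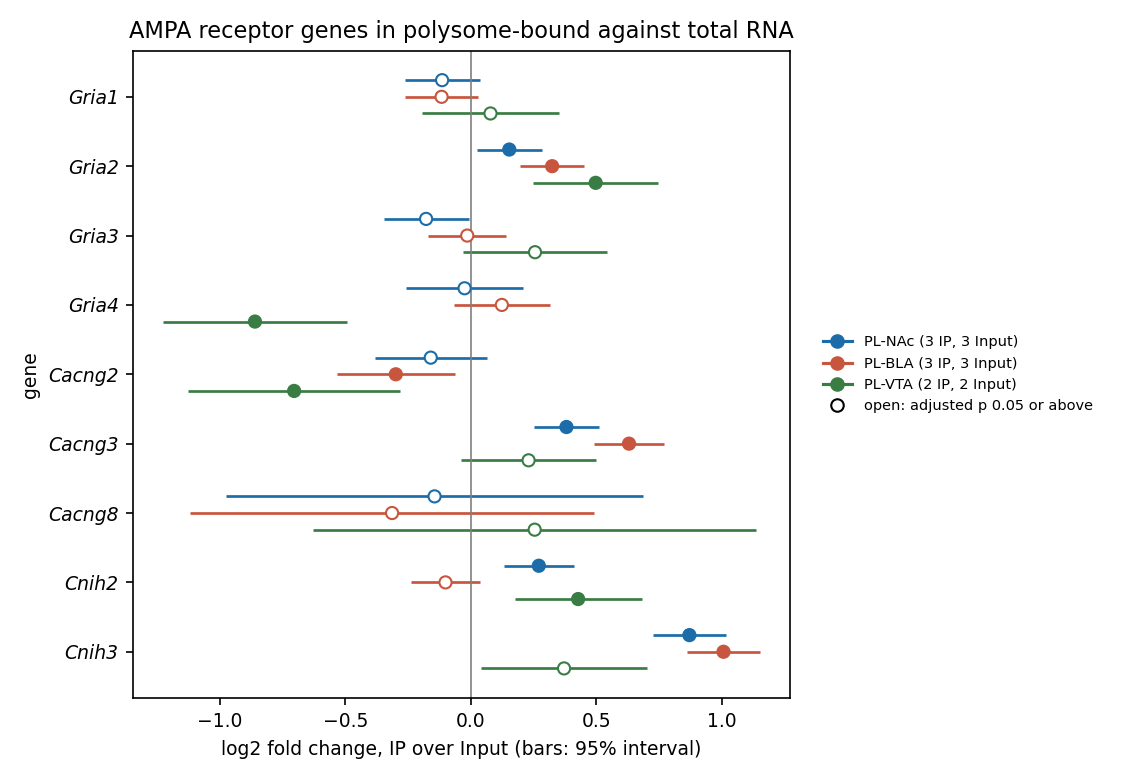
log2 fold change of IP over Input (x axis) of the 9 genes (y axis) in the 3 projections, by colour. Points are values of the authors' deposited tables and bars their 95% intervals; filled points passed the threshold. Cnih3 stands near 1 in PL-NAc and PL-BLA, and Gria4 stands at -0.86 in PL-VTA. With the excitatory median as zero, Gria2, Cacng3 and Cnih2 in PL-NAc and Gria2 and Gria4 in PL-BLA fall below zero.

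Gria2 (ENSMUSG00000033981, chr3:80681450-80802835, minus strand) was the pore-forming subunit that was higher in every IP. Its mean normalized counts in the authors' deposited tables were 6803, 8547 and 8946 in the order PL-NAc, PL-BLA, PL-VTA, the highest of the 4 Gria genes in each. The log2 fold change in the authors' deposited tables was 0.15 for PL-NAc (SE 0.07, adjusted p = 0.0463), 0.32 for PL-BLA (SE 0.06, adjusted p = 3.2e-06) and 0.50 for PL-VTA (SE 0.13, adjusted p = 0.000995), and with the excitatory median as zero it was -0.44, -0.22 and 0.44. The PL-NAc value lay just inside the threshold. PL-NAc and PL-VTA differed by -0.34 (95% interval -0.63 to -0.06), which missed the threshold after adjustment (adjusted p = 0.329, Wald z test over all genes). With the excitatory median as zero the difference of Gria2 was -0.88 (adjusted p = 9.5e-08), and PL-BLA minus PL-VTA was -0.66 (adjusted p = 0.00013).

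Gria1 (ENSMUSG00000020524, chr11:57011387-57330244, plus strand), which encodes the subunit known for its insertion into synapses during potentiation, was not called in any projection with the authors' zero. In the authors' deposited tables it had log2 fold changes of -0.11 for PL-NAc (SE 0.08, adjusted p = 0.232), -0.12 for PL-BLA (SE 0.07, adjusted p = 0.216) and 0.08 for PL-VTA (SE 0.14, adjusted p = 0.769). The PL-NAc and PL-BLA values differed by 0.002, with a 95% interval from -0.21 to 0.21. Gria3 (ENSMUSG00000001986, chrX:41400854-41678601, plus strand), which pairs with GluA2 in many cortical receptors, was not called either, with -0.18 (SE 0.09, adjusted p = 0.0849), -0.01 (SE 0.08, adjusted p = 0.912) and 0.26 (SE 0.15, adjusted p = 0.230) in the authors' deposited tables. Its value in PL-VTA exceeded that in PL-NAc by 0.43 (95% interval 0.10 to 0.77), short of the threshold (adjusted p = 0.263), and by 0.97 past it with the excitatory median as zero. On that zero Gria1 was lower in PL-NAc (-0.71) and PL-BLA (-0.66), as was Gria3 (-0.77 and -0.56), and neither was called in PL-VTA (0.02 and 0.20).

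The ratio between 2 genes of 1 table does not depend on the scaling. The fold change of Gria2 exceeded that of Gria1 by 0.27, 0.44 and 0.42 on the log2 scale in PL-NAc, PL-BLA and PL-VTA, and that of Gria3 by 0.33, 0.34 and 0.24. So Gria2 stood higher relative to both in each IP than in its Input, a description without a test of its own.

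Gria4 (ENSMUSG00000025892, chr9:4417896-4796234, minus strand) had the lowest counts of the family and the widest range of fold changes of the 9 genes. GluA4 is best known from inhibitory interneurons in adult cortex. Mean normalized counts were 861, 1104 and 825 in the authors' deposited tables. Its standard error in PL-NAc was larger than that of 98.2% of the 1492 genes with a mean within 1.25-fold of its own. It was level with the Input in PL-NAc (-0.02, SE 0.12, adjusted p = 0.896) and not called in PL-BLA (0.12, SE 0.10, adjusted p = 0.330), by the authors' deposited tables. In the PL-VTA IP it was lower, at -0.86 (SE 0.19, adjusted p = 7.0e-05) in the authors' deposited table, or 55.1% of the Input. Only 9.13% of the genes tested in PL-VTA had a lower fold change, against 50.2% in PL-NAc and 62.0% in PL-BLA. Gria2 relative to Gria4 rose by 0.18 and 0.20 on the log2 scale from Input to IP in PL-NAc and PL-BLA and by 1.36, or 2.56-fold, in PL-VTA. With the excitatory median as zero Gria4 was lower in all 3 IPs, at -0.62, -0.42 and -0.92. Inhibitory neuron markers, with the medians of -1.73, -1.67 and -1.70 given above, did not share 1 order over the projections. Most of them, namely Gad1, Gad2, Slc32a1, Pvalb, Calb2, Erbb4, Dlx1 and Dlx6os1, were highest in PL-VTA, where Gria4 was lowest. Sst, Npy and Lhx6 were lowest in PL-VTA, and Vip was highest in PL-BLA. Of those, chosen after their values were seen, Gad2 was at -1.40, -0.84 and -0.20 in PL-NAc, PL-BLA and PL-VTA of the authors' deposited tables. Sst was at 0.26, -0.53 and -1.69 and Npy at -0.85, -1.33 and -3.07 in the same order and tables. The part of inhibitory neurons in the Gria4 values was not tested.

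**Figure D2:**
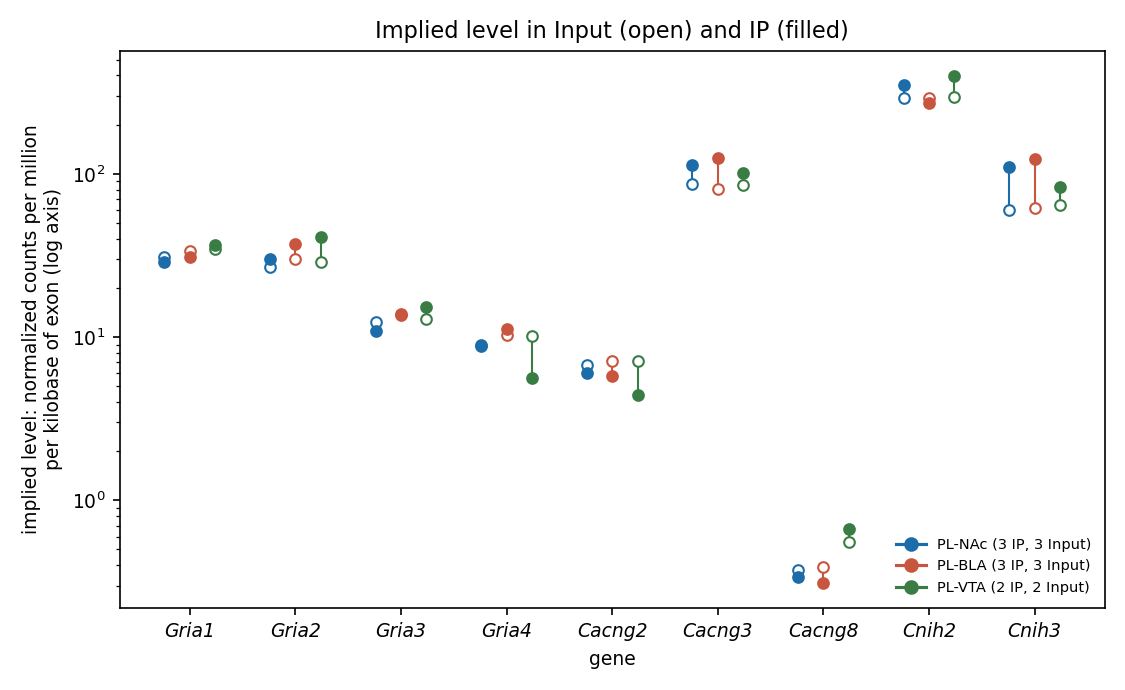
Implied level of each of the 9 genes (x axis) in Input (open points) and IP (filled points) of each projection, in normalized counts per 1000000 per kilobase of exon (y axis, log scale). Levels were split from the mean and the fold change of the authors' deposited tables and carry no error. The Input levels of a gene lie close together, save those of Cacng8, which run from 0.372 to 0.557. The IP level of Gria4 in PL-VTA, 5.63, lies below the other levels of Gria4.

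Splitting each mean into an IP and an Input part by its fold change shows where a difference lies. The implied Input level of Gria4 was 56.2 to 64.7 per 1000000 normalized counts over the 3 projections, and its implied IP level was 55.3 for PL-NAc, 70.5 for PL-BLA and 35.5 for PL-VTA. By this split the projections differed more in the IP level of Gria4 than in its Input level. The same split gave 417 to 464 per 1000000 for Gria2 in the Inputs, and 464, 581 and 634 in the IPs of PL-NAc, PL-BLA and PL-VTA.

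Per kilobase of exon, which allows genes to be compared, the implied Input levels ran from 31.1 to 34.4 for Gria1, 26.8 to 29.9 for Gria2, 12.3 to 13.8 for Gria3 and 8.92 to 10.3 for Gria4. As a share of the 4 summed, Gria2 made up 33.9%, 34.2% and 33.4% in the Inputs and 38.1%, 40.2% and 41.6% in the IPs of PL-NAc, PL-BLA and PL-VTA. The share of Gria4 was 11.3%, 11.7% and 11.8% in the Inputs and 11.2%, 12% and 5.74% in the IPs. Set in order with the auxiliary subunits, Cnih2 was highest in the Inputs at 290.5 to 294.8, followed by Cacng3 at 80.9 to 87.1, Cnih3 at 60.1 to 64.1, the 4 Gria genes, Cacng2 at 6.75 to 7.17 and Cacng8. These levels carry no error, so whether neighbours in the order differ was not tested. The order of Gria1 and Gria2 in the Input rested on the length used, since the exons of Gria2 sum to 15548 bases while its longest coding transcript has 10371. With the longest coding transcript of each gene, the PL-NAc Input share of Gria2 was 37.3%, above the 31.4% of Gria1.

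Of the TARPs, Cacng3 was higher in 2 IPs and Cacng2 lower in 2, and PL-BLA was the projection in which both were called. Cacng3 (ENSMUSG00000066189, chr7:122670492-122769393, plus strand) encodes TARP gamma-3, found mainly in cerebral cortex. It was higher in PL-NAc (0.38, SE 0.07, adjusted p = 7.4e-08) and PL-BLA (0.63, SE 0.07, adjusted p = 2.8e-17) in the authors' deposited tables, although with the excitatory median as zero these became -0.21 and 0.08. It was not called in PL-VTA (0.23, SE 0.14, adjusted p = 0.251, in the authors' deposited table). The differences between projections missed the threshold, at -0.25 for PL-NAc minus PL-BLA (95% interval -0.44 to -0.06, adjusted p = 0.347) and 0.40 for PL-BLA minus PL-VTA (95% interval 0.10 to 0.70, adjusted p = 0.208), and the excitatory median as zero gave -0.30 and -0.09.

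Cacng2 (ENSMUSG00000019146, chr15:77991748-78120028, minus strand) encodes stargazin, the TARP whose loss removes AMPA receptors from cerebellar granule cells. It was lower in PL-BLA (-0.30, SE 0.12, adjusted p = 0.0332) and PL-VTA (-0.70, SE 0.22, adjusted p = 0.00807, or 61.4% of the Input) and not called in PL-NAc (-0.16, SE 0.11, adjusted p = 0.268), by the authors' deposited tables. The PL-BLA call did not hold with the median of all genes as zero, where the value was -0.27 (adjusted p = 0.0524). PL-NAc and PL-VTA differed by 0.54 (95% interval 0.07 to 1.02), short of the threshold (adjusted p = 0.436), and by 0.01 with the excitatory median as zero. Cacng2 shares 323 exonic bases, 5.86% of its length, with the antisense gene A730060N03Rik, and reads of the 2 genes cannot be told apart without strand. That gene had means of 53.4, 67.4 and 62.2 in the authors' deposited tables, against 544, 580 and 526 for Cacng2. The fold change of Cacng3 exceeded that of Cacng2 by 0.54, 0.93 and 0.93 in PL-NAc, PL-BLA and PL-VTA, whatever the scaling.

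Cacng8 (ENSMUSG00000053395, chr7:3390683-3415648, plus strand), which encodes the TARP gamma-8 known for its role in hippocampus, was barely counted. Its mean normalized counts were 12.8, 13.5 and 23.7 in the authors' deposited tables. No direction could be read at this depth: its log2 fold changes in the authors' deposited tables were -0.14 (SE 0.42), -0.31 (SE 0.41) and 0.25 (SE 0.45), with adjusted p of 0.826, 0.589 and 0.770. The implied Input level of Cacng8 was 0.372 to 0.557 per 1000000 per kilobase, against 6.75 to 7.17 for Cacng2 and 80.9 to 87.1 for Cacng3. The transcripts of Cacng8 have a GC content of 65.1%, above 99.4% of 21877 genes. Those of Cnih2, the most abundant of the 9 genes per kilobase, have 62.3%, above 98.2% of genes. How far GC content affects either count was not tested.

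The cornichon Cnih3 had the highest fold change of the 9 genes in PL-NAc and PL-BLA, and Cnih2 followed another pattern. Cnih3 (ENSMUSG00000026514, chr1:181352628-181460641, plus strand) was higher in PL-NAc (0.87, SE 0.07, adjusted p = 9.7e-30) and PL-BLA (1.01, SE 0.07, adjusted p = 1.3e-39, or 2.01-fold), by the authors' deposited tables. It was the 1 gene of the 9 that stayed higher in both with the excitatory median as zero, at 0.28 and 0.46. Among the genes tested, 97.2% in PL-NAc and 98.4% in PL-BLA had a lower fold change than Cnih3. In PL-VTA it was not called (0.37, SE 0.17, adjusted p = 0.102, in the authors' deposited table). Its standard error there was larger than that of 96.3% of the 599 genes with a mean within 1.25-fold of its own, so that its spread between these libraries was wide for its abundance.

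Cnih2 (ENSMUSG00000024873, chr19:5092868-5098521, minus strand) encodes the cornichon known to slow AMPA receptors of hippocampal pyramidal cells. It was higher in PL-NAc (0.27, SE 0.07, adjusted p = 0.000481), where with the excitatory median as zero it was -0.32, and in PL-VTA (0.43, SE 0.13, adjusted p = 0.00682), by the authors' deposited tables. It was not called in PL-BLA (-0.10, SE 0.07, adjusted p = 0.263, in the authors' deposited table). The implied Input levels of Cnih2 spanned 398 to 404 per 1000000 and its IP levels were 479.9 for PL-NAc, 371 for PL-BLA and 543 for PL-VTA. Cnih3 had implied Input levels of 165 to 176 per 1000000 and IP levels of 302, 340 and 228. Relative to Cnih2, Cnih3 rose by 0.60 and 1.11 on the log2 scale from Input to IP in PL-NAc and PL-BLA, and changed by -0.06 in PL-VTA.

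The enrichments of each projection were then set against one another, to ask which of the 9 genes differed between neurons of different targets. The difference of 2 log2 fold changes was tested with a two-sided Wald z test from the deposited estimates, adjusted over all genes. The projections share no library. Of 27 tests, 5 passed the threshold, in Gria4, Cnih2 and Cnih3. The shares of all genes given for these tests include genes with few reads that had no adjusted p in the deposited tables.

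Gria4 was higher in PL-NAc than in PL-VTA by 0.84 (SE 0.22, adjusted p = 0.0109, 1.78-fold) and in PL-BLA than in PL-VTA by 0.98 (SE 0.21, adjusted p = 0.000281, 1.98-fold). On the scale of the excitatory median these differences kept their direction at 0.30 and 0.50 and missed the threshold (adjusted p = 0.245 and 0.0709). Cnih3 was higher in PL-BLA than in PL-VTA by 0.64 (SE 0.18, adjusted p = 0.0220), and by 0.15 (adjusted p = 0.501) with the excitatory median as zero. Between PL-NAc and PL-VTA the difference of Cnih3 was 0.50 (95% interval 0.14 to 0.86, adjusted p = 0.185), and -0.03 on the scale of the excitatory median. Cnih2 went the other way and was lower in PL-BLA than in both other projections: PL-NAc minus PL-BLA was 0.37 (SE 0.10, adjusted p = 0.0211) and PL-BLA minus PL-VTA was -0.53 (SE 0.15, adjusted p = 0.0146). Centred on the excitatory median, the first of these was 0.32 (adjusted p = 0.0736) and the second -1.02, still past the threshold.

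Counted by direction, 1 of the 9 genes was higher in PL-NAc than in PL-BLA (0.391% of all genes, with 0.751% the other way and 1.14% in all), 1 was higher in PL-NAc than in PL-VTA (1.02%, with 1.28% and 2.29%), 2 were higher in PL-BLA than in PL-VTA (1.56%) and 1 was lower (1.49%, 3.05% in all). Centred on the excitatory median, none was higher in PL-NAc or PL-BLA than in PL-VTA, while 5 genes were higher in PL-VTA than in PL-NAc and 4 higher than in PL-BLA. All genes shifted the same way on that scale: 6468 were higher in PL-VTA than in PL-NAc and 101 lower, and 4275 were higher than in PL-BLA and 149 lower. Gria1, Gria2, Gria3 and Cnih2 were higher in PL-VTA in both comparisons on that scale, and Cacng3 against PL-NAc alone. Which differences between projections were called thus rested on the zero, and the Cnih2 difference between PL-BLA and PL-VTA was the 1 of the 5 that was called on both scales.

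**Figure D3:**
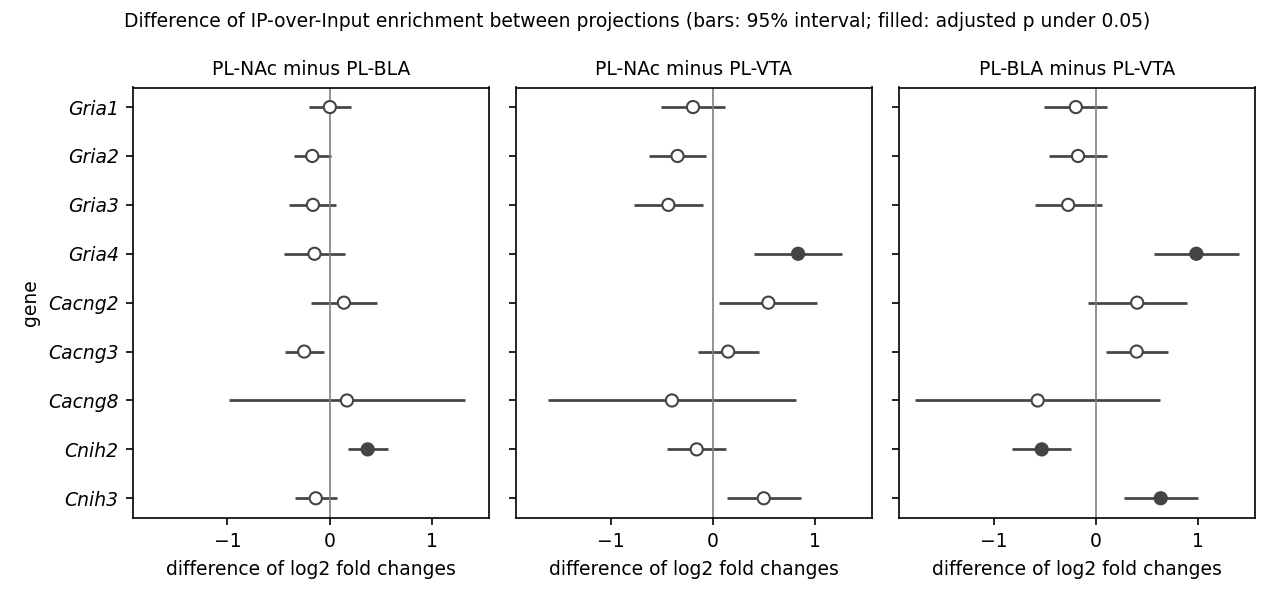
Difference between projections in the log2 fold change of IP over Input (x axis) for each of the 9 genes (y axis), 1 panel per pair. Points are differences of the authors' deposited values, bars 95% intervals, and filled points passed the threshold. Gria4 lies right of zero in both comparisons with PL-VTA, at 0.84 and 0.98; with the excitatory median as zero these become 0.30 and 0.50, and the points of Cnih3 become -0.03 and 0.15.

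Markers of layer 5 projection classes moved with the projection. Markers of layer 5 extratelencephalic neurons, the class that sends axons out of the forebrain, had medians of -0.11, -0.71 and 1.47 in PL-NAc, PL-BLA and PL-VTA. Of these 7 genes, 3 were higher and 2 lower in PL-NAc, 3 and 3 in PL-BLA, and 6 higher and none lower in PL-VTA. Markers of layer 5 intratelencephalic neurons had medians of 0.29, 0.71 and -0.77. Of these 5 genes, 3 were higher in PL-NAc and 4 in PL-BLA with none lower, and 1 was higher and 3 lower in PL-VTA. Upper layer markers were lower for 4, 4 and 5 of 5 genes in the 3 IPs, with medians of -0.74, -0.37 and -1.08. Layer 6 markers had medians of 0.11, -0.69 and 0.36. The part of these neuron classes in the differences of Gria4, Cnih2 and Cnih3 was not tested.

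Genes with a pattern like those of the 2 widest-ranging members were sought by the distance over the 3 log2 fold changes, among 11937 genes with a mean of 50 or more. Nearest to Gria4 were Kcnh1, a potassium channel gene, at -0.01, 0.16 and -0.88 in the authors' deposited tables (distance 0.05), Rflnb (0.08) and Sorbs2 (0.10). Nearest to Cnih3 were Trpv2, a cation channel gene, at 0.85, 1.01 and 0.34 in the authors' deposited tables (distance 0.04), Schip1 (0.07) and Dkk3 (0.08). The distance rests on 3 values per gene.

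The wider AMPA receptor machinery was followed in 4 lists with 58 genes: 24 partners of the receptor complex, 27 anchoring and trafficking genes, 3 RNA editing enzymes and 4 further cornichon and gamma-subunit genes. These lists too were chosen with earlier results of these data known. Of the 58, 20 were higher and 15 lower in PL-NAc, 18 and 16 in PL-BLA, and 9 and 16 in PL-VTA; the shares of all genes were those given above. On the scale of the excitatory median the counts were 2 and 47, 3 and 40, and 4 and 16. Most genes of the whole table were lower on that scale in PL-NAc (11858 of 17998) and PL-BLA (11058 of 17668). In PL-VTA 1805 of 15440 were lower. The median of the 58 was 0.08, 0.04 and -0.04 in the 3 projections.

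Among the complex partners, 6, 7 and 2 of 24 were higher and 7, 9 and 6 lower in PL-NAc, PL-BLA and PL-VTA. The shares of all genes tested were 21.4%, 20.8% and 11.0% higher and 21.7%, 20.2% and 10.5% lower. Prrt1, a transmembrane partner of the receptor also called SynDIG4, was higher in all 3 (0.92, 0.55 and 0.60 in the authors' deposited tables), though its PL-BLA value is level with the excitatory median. Porcn was higher in PL-NAc and PL-BLA (0.45 and 0.47 in the authors' deposited tables), below the excitatory median in both. Abhd6, whose product limits receptor delivery, was higher in all 3 (0.25, 0.38 and 0.43 in the authors' deposited tables), below the excitatory median in PL-NAc and PL-BLA. On the low side, Shisa8 was at -2.38, -1.33 and -1.44, and Cacng5, which encodes the TARP gamma-5, at -1.96, -1.21 and -1.13 in the authors' deposited tables, all lower. Cacng4, the gamma-4 TARP, was lower in PL-NAc and PL-BLA (-0.85 and -1.08), and Vwc2 was lower in the same 2 (-0.83 and -1.35), by the authors' deposited tables. Oligodendrocyte precursor markers, also lower in 6 of 7 genes in each IP, had medians of -1.67, -1.42 and -1.20, and their part in the low values of these genes was not tested.

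The anchoring and trafficking genes were higher for 13, 10 and 5 of 27 and lower for 6, 4 and 8 in PL-NAc, PL-BLA and PL-VTA. Over all genes tested, 21.4%, 20.8% and 11.0% were higher and 21.7%, 20.2% and 10.5% lower. The pentraxin gene Nptx2 had the highest value of this list in PL-NAc and PL-BLA (0.96 and 1.56 in the authors' deposited tables). Nsf, the ATPase that frees SNARE complexes and binds GluA2, was at 0.61, 0.84 and 0.36, and Ap2m1, a clathrin adaptor subunit, at 0.71, 0.65 and 0.39 in the authors' deposited tables, all higher and all above the excitatory median. Rab11a, of recycling endosomes, was at 0.56, 0.56 and 0.49, and the clathrin adaptor gene Ap2a1 at 0.41, 0.70 and 0.46 in the authors' deposited tables, higher in each, although in PL-NAc both were below the excitatory median. On the low side, Myo6, a motor for endocytic vesicles, was at -1.31, -0.72 and -0.76, and Prkca, a kinase that phosphorylates GluA2, at -0.74, -0.37 and -0.86 in the authors' deposited tables. Epb41l1, which links GluA1 to actin, was lower in all 3 at -0.30, -0.51 and -0.43, and Grip2, a scaffold for GluA2 and GluA3, was lower in PL-NAc at -0.64, in the authors' deposited tables.

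The RNA editing enzymes had the same directions in each projection. Adar was at 0.42, 0.45 and 0.41 in the authors' deposited tables, higher in each, though below the excitatory median in PL-NAc and PL-BLA. Adarb1, whose product edits the pore-loop codon of Gria2 printed above, was lower at -0.54, -0.49 and -0.68 in the authors' deposited tables. Adarb2, a relative without known editing activity, was lower at -1.73, -1.36 and -1.32 in the authors' deposited tables. No editing level can be had from these tables. Of the further cornichon and gamma-subunit genes, Cnih4 was lower in PL-BLA (-0.43) and Cacng6 was higher in PL-VTA (1.34, at a mean of 68.1), by the authors' deposited tables.

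Between projections, 7 of the 58 genes were higher in PL-NAc than in PL-VTA, against 1.02% of all genes. In PL-BLA 8 were higher than in PL-VTA, against 1.56% of all genes. None went the other way in either comparison, against 1.28% and 1.49% of all genes. With the excitatory median as zero, most called genes of the whole table were higher in PL-VTA. On that zero, 6 and 6 of the 58 were higher and 28 and 25 lower. The 6 were the same genes in both comparisons, namely Olfm1, Nrn1, Arc, Nptx1, Nptx2 and Nptxr. Nrn1, a small membrane-anchored partner of the receptor, differed by 1.81 and 2.11 from PL-VTA in PL-NAc and PL-BLA, and Olfm1, a secreted partner, by 1.33 and 1.51. The neuronal pentraxins cluster AMPA receptors from outside the cell: Nptx2 differed by 1.51 and 2.11, Nptxr by 1.52 and 1.73, and Nptx1 by 1.01 and 0.97. Arc, which drives endocytosis of the receptor, differed by 1.19 in both. Camk2a (PL-NAc above PL-VTA by 0.54), which is also 1 of the excitatory markers, was no longer called with the excitatory median as zero (0.002), nor were Olfm2 and Nsf (PL-BLA above PL-VTA by 0.59 and 0.48 with the authors' zero, and 0.10 and -0.01 with the excitatory median). Between PL-NAc and PL-BLA, Dlg4, which encodes the scaffold PSD-95, was higher in PL-NAc by 0.64 (0.59 with the excitatory median as zero, adjusted p = 0.0616, not called), and Shisa8 and Nptx2 were higher in PL-BLA, the differences PL-NAc minus PL-BLA being -1.05 and -0.60, both still called on that zero. The PL-VTA values of the 3 pentraxin genes were -0.69 for Nptx1 (adjusted p = 0.000288), -0.55 for Nptx2 (adjusted p = 0.0878) and -0.93 for Nptxr (adjusted p = 4.9e-09) in the authors' deposited table. The receptor subunit genes Gria1, Gria2, Gria3 and Gria4 were at 0.08, 0.50, 0.26 and -0.86 in the same table. Of these, Gria2 was called higher and Gria4 lower.

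**Figure D4:**
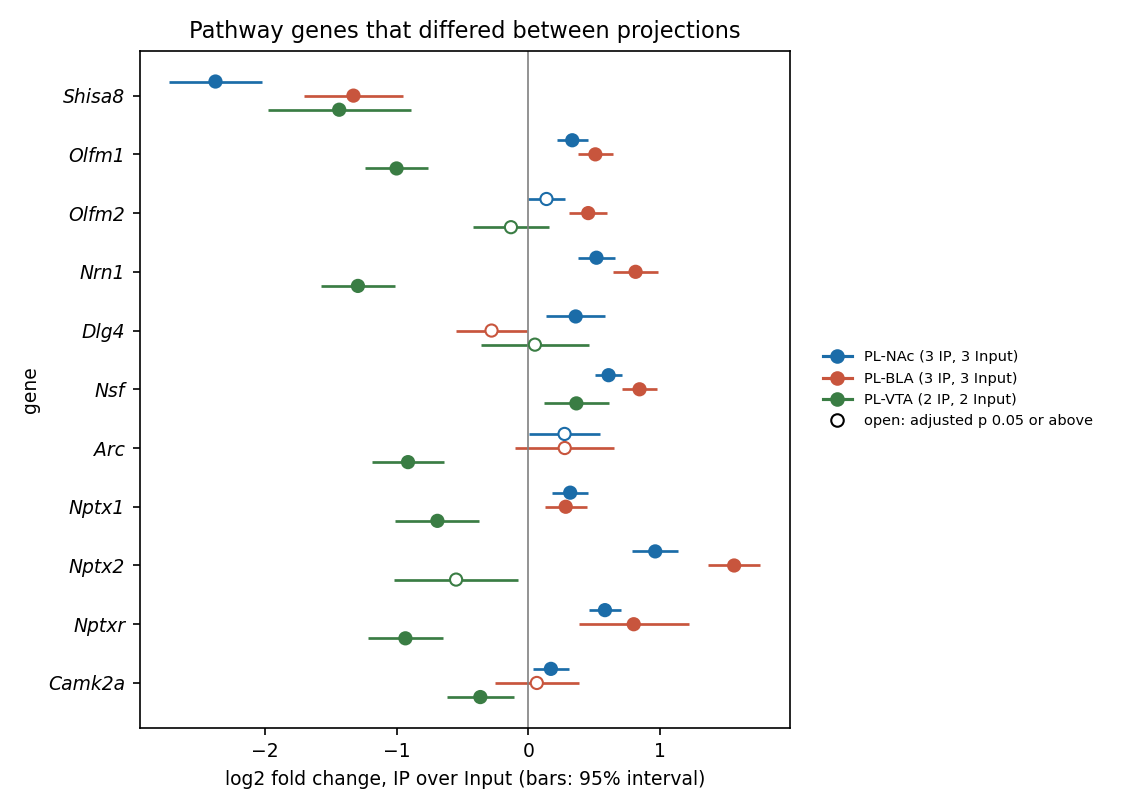
log2 fold change of IP over Input (x axis) of the 11 genes of the 4 lists that differed between projections (y axis), by projection in colour. Points are values of the authors' deposited tables, bars 95% intervals, and filled points passed the threshold. Olfm1, Nrn1, Nptx1 and Nptxr lie right of zero in PL-NAc and PL-BLA and left of it in PL-VTA; with the excitatory median as zero, Olfm1, Nrn1, Nptx1 and Nptxr in PL-NAc and Olfm1 and Nptx1 in PL-BLA fall below zero.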

How the data were processed

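RNA of vTRAP IP and Input libraries was sequenced by the submitters with an unstranded SMARTer Ultra Low and Nextera XT chemistry, per the labels' protocols. Reads were processed with STAR 2.3, featureCounts and DESeq2 on mm10/GRCm38, per the submitters' processing notes; model formula and annotation release were not given in the sources used here. Mean signal (the mean of normalized read counts), the log2 fold change, the test score, the p-value and its adjusted form are the authors' deposited values, per the file headers. The score equalled the fold change over its standard error. The adjusted p was blank below means of 1.82, 2.39 and 8.58 in the 3 tables (order PL-NAc, PL-BLA, PL-VTA). Unnamed rows, 1252 in each table, held 0.240%, 0.227% and 0.235% of the counts. Differences between projections were tested with a two-sided Wald z test, Benjamini-Hochberg adjusted over 21981, 21559 and 21613 genes (Python 3.11.15, scipy 1.17.1). The code was run on simulated data whose noise was drawn with the deposited standard errors. Whether those errors are right for these libraries was thus not tested. Implied levels split each mean by its fold change, with equal library numbers on both sides, per 1000000 of the summed means. Lengths and positions are from GENCODE M21. Members and lists were chosen with earlier results of these data known. Named pathway genes were those called with the 3 largest and 3 smallest fold changes in each list and projection and those called between projections. For the 2 members with the widest range, the 3 nearest genes were named. Depth per library is unknown, and no count interval is given. Other zeros, filters, thresholds and lengths were tried as alternatives.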

Additional observations from a re-analysis of the deposited data

Results flagged for a closer look

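The fold change of IP over Input differed between projections in 5 of 27 tests of the 9 genes (two-sided Wald z test, adjusted over all genes). Of all genes, 1.14% were called between PL-NAc and PL-BLA, 2.29% between PL-NAc and PL-VTA, and 3.05% between PL-BLA and PL-VTA. Those shares include genes with few reads that had no adjusted p in the deposited tables. Gria4 exceeded its PL-VTA value by 0.84 in PL-NAc and by 0.98 in PL-BLA. Cnih2 was 0.37 higher in PL-NAc than in PL-BLA, and PL-BLA minus PL-VTA was -0.53. Cnih3 was 0.64 higher in PL-BLA than in PL-VTA. With the excitatory median as zero, the Cnih2 difference between PL-BLA and PL-VTA was the 1 of these that was still called.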

How the results depend on the processing

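No paired analysis was possible because the tables give no value per library; leaving out each replicate and edgeR were not run for the same reason, so how far 1 library decides a value is unknown, and PL-VTA rests on 2 libraries a side. Adjusting over all genes with a p-value, over those at a mean of 50 or more, or over genes with an adjusted p in both tables (the last added after seeing the data), and undoing approximately the shrinkage that the deposited values may carry, left every count within 1.5 times the reported one; Gria2 in PL-NAc missed the threshold over all genes (adjusted p = 0.0596). At an adjusted p under 0.01, no member was lower in PL-BLA, 3 of the 58 further genes were higher in PL-VTA, and the members called between projections fell to 0, except 1 higher in PL-BLA than in PL-VTA. With the median of all genes as zero, 0 members were lower in PL-BLA. With the excitatory median as zero, 1 member was higher and 7 lower in PL-NAc, 1 and 6 in PL-BLA; of the further genes 2 and 47, 3 and 40, and in PL-VTA 4 were higher. There, 0 members were higher in PL-NAc than in PL-BLA, 0 in PL-NAc and 0 in PL-BLA than in PL-VTA, and 5 and 4 were higher in PL-VTA. Over all genes that zero gave 473 higher and 11858 lower in PL-NAc, 492 and 11058 in PL-BLA, and 1333 and 1805 in PL-VTA. Among values called on either zero, signs changed for Gria2 (-0.44), Cacng3 (-0.21) and Cnih2 (-0.32) in PL-NAc, for Gria2 (-0.22) and Gria4 (-0.42) in PL-BLA, and for Cacng3 in PL-NAc minus PL-VTA (-0.38). Signs of uncalled differences changed for Gria1 in PL-NAc minus PL-BLA (-0.045), Cnih3 in PL-NAc minus PL-VTA (-0.03), and Cacng2 (-0.08) and Cacng3 (-0.09) in PL-BLA minus PL-VTA. With the median of all genes as zero, the uncalled Gria4 in PL-NAc (0.002) and Gria3 in PL-BLA (0.01) turned positive. The excitatory shifts follow from the change of zero, by 0.59, 0.55 and 0.06. The PL-NAc Input share of Gria2 was 37.28% with the longest coding transcript, an alternative added after seeing the data.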
